A study of Homo sapiens with 12 samples.

Results

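SAHA, also called vorinostat, was added to MDA-MB-231 cells that received pargyline as well, and the RNA of these cells was compared with that of cells given pargyline without it. The comparison set 3 arrays labelled as the combination (5 uM SAHA plus 2.5 mM pargyline) against 3 arrays labelled as pargyline alone (2.5 mM), and these 6 were all the arrays of both treatments among the 12 in the series. Cells of both groups had thus been exposed to pargyline for 24 h, so the difference between them is the effect of SAHA in its presence. The other 6 arrays, 3 with the vehicle DMSO and 3 with 5 uM SAHA, gave the effect of SAHA without pargyline. Treatment time was 24 h for all 12 arrays. MDA-MB-231 is 1 established human line of triple-negative breast cancer, grown under its usual culture conditions. The labels call the 3 arrays of a group biological replicates and do not describe how the cultures were kept apart, so the p-values measure the spread between these arrays.

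Histone deacetylases remove acetyl groups from lysines of histones and of other proteins, and SAHA blocks the zinc-dependent members of the family. Cells treated with such inhibitors are known to gain histone acetylation, to switch genes on as well as off, to raise the cell-cycle inhibitor CDKN1A and to stop dividing. Pargyline inhibits monoamine oxidases and, at millimolar doses, has been used against LSD1, the histone demethylase encoded by KDM1A. LSD1 and the deacetylases HDAC1 and HDAC2 sit together in the CoREST repressor complex.

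All values are on the log2 scale of the deposited array values, on which 1 unit is a 2-fold difference. A change is the mean of the 3 combination arrays minus that of the 3 pargyline arrays, given with its standard error. A gene is said to have risen or fallen where limma's moderated test gave a Benjamini-Hochberg adjusted p under 0.05 over the 11963 genes tested. The lower quartile of all values was 2.23, and values near it are background, so a change from or to such a value gives a direction and no exact fold.

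Array medians averaged 5.33 ± 0.04 (SD, n = 3) with the combination and 5.30 ± 0.02 with pargyline. The 3' minus 5' difference of the actin control probes, a sign of RNA integrity, was 0.89 ± 0.05 against 0.81 ± 0.17 (exact two-sided permutation p = 0.7). The poly-A RNA added during labelling read 9.82 ± 0.20 with the combination and 9.21 ± 0.17 with pargyline without overlap, at an exact permutation p = 0.1, the smallest that 3 arrays against 3 can give, and 0.5 after adjustment over the 5 quality measures tested. Its part in the changes was not tested. The labelled cell type was checked against its markers: VIM, an intermediate filament of mesenchymal cells, read 14.81, 14.70 and 14.88 with pargyline and 14.79, 14.86 and 14.85 with the combination, while ESR1, the oestrogen receptor, read 3.14, 3.22 and 3.00 and 3.10, 3.10 and 3.05. GATA3 and ERBB2, which are low in many triple-negative tumours, were above background here, with pargyline means of 9.42 and 8.21. No member of the 14 leukocyte markers measured rose or fell, and their mean lay between 2.15 and 2.24 on every array of the series. The same held for the 9 fibroblast markers, with means between 3.03 and 3.16, of which COL1A1 was the brightest at 6.10 with pargyline. Of 8 endothelial markers 1 rose, KDR (0.76 ± 0.12), picked out because it passed, and their mean stayed between 2.26 and 2.38. Without 1 array or under quantile normalization, up to 2 markers of a list passed in 1 direction.

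Adding SAHA to pargyline changed the level of 47.5% of the genes tested. In all, 2856 genes rose (23.9% of those tested), 2826 fell (23.6%) and 6281 did not pass. Changes of at least 2-fold made up 1071 of the rises and 1098 of the falls, and changes of at least 4-fold 318 and 342. The median change over all genes was 1e-04, and the median standard error was 0.077. For 3193 genes each combination array lay above each pargyline array and for 3167 below it, together 53.2% of genes. Where a gene that passed had a second probe set above the median level of 7.06, that probe set changed in the same direction for 1301 of 1330 genes (97.8%) and passed for 1160.

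The 12 largest rises among genes whose higher group mean, of pargyline and the combination, was above that level were, in order, ABAT, HPCAL4, NR4A1, CYFIP2, TEX14, CRISPLD2, SCG2, FOS, STAT4, DHRS2, HLA-DMB and CORO1A. Most of them started at background. ABAT, which encodes the enzyme that breaks down the neurotransmitter GABA, read 2.87, 3.00 and 2.81 with pargyline and 11.05, 11.09 and 10.61 with the combination, a change of 8.03 ± 0.15. HPCAL4, a neuronal calcium sensor, went from 2.06, 2.10 and 2.07 to 9.54, 9.39 and 9.32, a change of 7.34 ± 0.10. For both genes the combination arrays lay far above all 3 pargyline arrays. A second ABAT probe set changed by 7.92, while dim further probe sets of ABAT and HPCAL4 changed by 0.29 and 0.11.

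SCG2, a secretogranin of neuroendocrine granules, rose from 4.81, 5.31 and 5.03 to 11.12, 11.11 and 10.84 (5.97 ± 0.13). STAT4, a transcription factor downstream of interleukin-12, rose from 2.52, 2.62 and 2.44 to 8.18, 8.08 and 8.34 (5.67 ± 0.07) and had the smallest standard error of these rises. DHRS2, a short-chain dehydrogenase known to respond to deacetylase inhibitors, was the one member of the set that was already above the median level before SAHA. It read 8.56, 8.40 and 8.19 with pargyline and 14.19, 13.99 and 13.87 with the combination (5.64 ± 0.15), and its other probe set changed by 8.44. NR4A1, an orphan nuclear receptor of the immediate early genes, rose from 2.88, 2.65 and 2.67 to 10.22, 9.92 and 8.38 (6.77 ± 0.56). Its combination arrays spread over more than a unit, with replicate 3 lowest, and its further probe sets, both dim, changed by 1.59 and 0.06.

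CORO1A, an actin-binding protein of blood cells, was raised from 1.39, 1.92 and 2.49 to 8.14, 7.39 and 6.72 (5.48 ± 0.49), again with replicate 3 as the lowest combination array. HLA-DMB, which helps load peptides on MHC class II, was raised by 5.56 ± 0.14, and CRISPLD2, a secreted protein that binds lipopolysaccharide, by 6.03 ± 0.36. Adjusted p over these 12 rises and the 12 largest falls ran from 3.03e-11 to 4.32e-05.

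**Figure D1:**
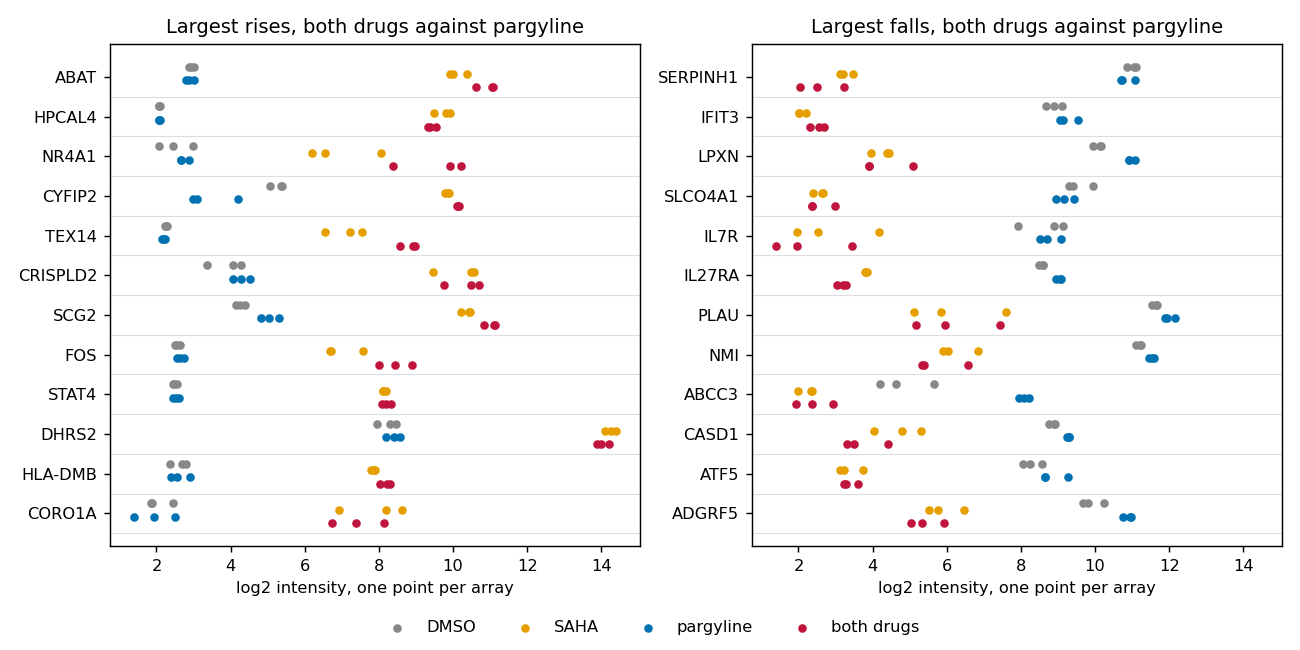
Log2 value on each array of the 12 genes that rose most and the 12 that fell most, among genes whose higher mean of the 2 groups was above the median level of 7.06; points are single arrays, 3 for each of DMSO, SAHA, pargyline and the combination (both drugs). For all 24 genes the points of pargyline and of the combination lie apart, and most of the rises start near the background of 2.23, as with HPCAL4 at 2.06 to 2.10.

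SERPINH1, the collagen chaperone HSP47, fell furthest. Its values were 11.07, 10.72 and 10.70 with pargyline and 2.50, 2.04 and 3.24 with the combination, a change of -8.23 ± 0.26 that ended at background. IFIT3, an interferon-induced antiviral protein, fell from 9.54, 9.14 and 9.05 to 2.31, 2.69 and 2.57 (-6.72 ± 0.15). PLAU, the urokinase that activates plasminogen outside the cell, fell from 11.94, 12.17 and 11.89 to 5.17, 5.95 and 7.42 (-5.82 ± 0.65), and a second probe set changed by -5.88. The PLAU combination arrays differed among themselves by more than 2 units, with replicate 1 lowest and replicate 3 highest, and all 3 lay below the pargyline arrays.

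Receptors of cytokines were among the falls as well. IL7R, the interleukin-7 receptor, went from 9.08, 8.71 and 8.50 to 1.40, 1.97 and 3.45 (-6.49 ± 0.65). IL27RA, a chain of the interleukin-27 receptor, went from 9.06, 9.08 and 8.96 to 3.04, 3.21 and 3.29, and its change of -5.86 ± 0.06 had the lowest adjusted p of the 24. Of its further probe sets 1 changed by -2.96 and the other, at background, by -0.01.

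LPXN, a focal adhesion protein of the paxillin family, fell by 6.66 ± 0.28 from a pargyline mean of 10.96, and SLCO4A1, an organic anion transporter, by 6.62 ± 0.22 from 9.18. NMI, a protein that binds MYC and STAT factors, ended at 5.76 after a change of -5.76 ± 0.33. ATF5, a transcription factor of the stress response, changed by -5.48 ± 0.22, with further probe sets at -4.71 and, at background, -0.02. ABCC3, an exporter of conjugated organic anions, changed by -5.67 ± 0.36, CASD1, a sialic acid O-acetyltransferase, by -5.54 ± 0.33, and ADGRF5, an adhesion G-protein-coupled receptor, by -5.46 ± 0.28. Each of the 24 genes also passed, in the same direction, when SAHA was given without pargyline.

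The genes of the drugs' own targets had smaller changes than the 24 genes above. Of 9 deacetylase genes measured 4 rose, 1 fell and 4 did not pass, with a median change of 0.12. Over all genes 23.9% rose, 23.6% fell and 47.5% passed in either direction, so few members of so short a list separate it from that share. HDAC1 and HDAC2, the deacetylases of the CoREST complex, had changes of 0.03 ± 0.04 and -0.11 ± 0.07 that did not pass. HDAC3, which works in the NCoR complex, rose from 10.41, 10.40 and 10.51 to 11.67, 11.53 and 11.60 (1.16 ± 0.09). HDAC5, a class IIa enzyme that shuttles between nucleus and cytoplasm, rose from 4.70, 4.60 and 4.05 to 6.89, 6.90 and 6.60 (2.35 ± 0.19), and the tubulin deacetylase HDAC6 rose by 0.45 ± 0.08. HDAC9 rose by 1.20 ± 0.37, a call that was lost without pargyline replicate 1 or 3 or combination replicate 2. HDAC7 fell from 3.38, 5.12 and 5.26 to 2.63, 2.64 and 2.60 (-1.96 ± 0.41), where all 3 combination arrays were near background and pargyline replicate 1 stood below the other two.

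KDM1A, which encodes LSD1, had a change of 0.24 ± 0.09 with an adjusted p of 0.0566 in limma's test. Its 3 combination arrays at 10.18, 10.26 and 10.28 lay above the pargyline arrays at 10.11, 9.88 and 10.01, and the call was gained under 8 of the alternatives tried, among them quantile normalization. MAOA, a monoamine oxidase of the outer mitochondrial membrane, rose from 7.75, 7.58 and 7.95 to 8.78, 8.95 and 8.78 (1.07 ± 0.11), while MAOB stayed at background. Of the 12 measured genes of LSD1 complexes and monoamine oxidases 2 rose and 4 fell, with a median of -0.05, against 23.9% and 23.6% of all genes. Those that rose were MAOA and the LSD1 complex subunit HMG20B (0.82 ± 0.06). CTBP1, a corepressor, changed by -0.92 ± 0.05, GSE1 by -1.12 ± 0.19, ZMYM3 by -1.20 ± 0.20 and ZMYM2 by -0.33 ± 0.09, the last not called on the mean of its probe sets. Under quantile normalization 4 members rose, and without combination replicate 1 the median was 0.019.

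Of 20 growth arrest genes measured 10 rose, 3 fell and 7 did not pass (median 0.47), against rises in 23.9% of all genes. CDKN1A, the p21 inhibitor of cyclin-dependent kinases, went from 9.31, 9.06 and 9.07 to 12.28, 12.29 and 11.32 (2.82 ± 0.25), and CDKN1C, the p57 inhibitor, from 7.12, 7.51 and 7.57 to 10.74, 10.95 and 9.69 (3.06 ± 0.33). Combination replicate 3 was the lowest of its group for both, and above every pargyline array. CDKN2D rose by 1.48 ± 0.10, the damage-response gene GADD45A by 1.20 ± 0.22 and the antiproliferative gene TOB1 by 1.13 ± 0.07. Its relative TOB2 fell, with a change of -0.77 ± 0.12, as did CCNG1 (-0.37 ± 0.07).

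Of 68 genes of mitosis 63 fell, 1 rose and 4 did not pass, with a median change of -1.26, against falls in 23.6% of all genes. HMMR, a spindle-associated protein, had values of 9.45, 9.47 and 9.23 with pargyline and 6.28, 5.78 and 7.38 with the combination (-2.90 ± 0.34). UBE2C, the ubiquitin-conjugating enzyme of the anaphase-promoting complex, went from 13.11, 12.82 and 12.67 to 10.80, 10.13 and 10.54 (-2.38 ± 0.16). CCNB2, a B-type cyclin that drives entry into mitosis, went from 12.10, 12.16 and 12.01 to 10.19, 9.40 and 9.95 (-2.24 ± 0.17). Combination replicate 2 was the lowest array for all 3 of these genes, and its mean over the 68 genes was 9.37, against 9.98 and 9.81 in replicates 1 and 3. The 3 pargyline arrays had list means of 11.04, 11.04 and 10.92, so the groups did not overlap. CDCA3 changed by -2.61 ± 0.21, the kinesin KIF20A by -2.37 ± 0.23 and the kinase AURKB by -2.36 ± 0.22. The exception was CKS2, a small protein that binds cyclin-dependent kinases, which rose from 13.87, 14.15 and 13.90 to 14.72, 14.76 and 14.40 (0.65 ± 0.11).

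Promoters of this group are shown because its members moved together and one of them moved apart. Sequences 250 bases before to 50 after the start of each gene were taken from RefSeq on GRCh38.p14, and 9563 of the 11963 genes had one. The core of the cell cycle homology region, TTTGAA, through which the DREAM repressor complex is known to act, was searched on both strands, as was the CCAAT box, to which NF-Y binds. TTTGAA was found in 38 of the 56 mitosis promoters (67.9%), against 1050 of all 9563 promoters. Within the list it stood in 36 of the 52 whose genes fell and in 1 of the 3 whose genes did not pass. The promoter of AURKB, which fell, held none. Over all genes it stood in 283 of 2373 promoters of genes that fell, 172 of 2387 that rose and 595 of 4803 that did not pass. Its share was thus high in the list, while over all genes it was alike for falls and for genes that did not pass. CCAAT was found in 42 of the 56 (75.0%) against 37.3% of all. The promoters of CCNB2 (chr15:59104896-59105195, plus strand), HMMR (chr5:163460382-163460681, plus strand) and CKS2 (chr9:89310945-89311244, plus strand) follow, chosen after their values were seen, with matches to either motif on either strand in capitals.
CCNB2: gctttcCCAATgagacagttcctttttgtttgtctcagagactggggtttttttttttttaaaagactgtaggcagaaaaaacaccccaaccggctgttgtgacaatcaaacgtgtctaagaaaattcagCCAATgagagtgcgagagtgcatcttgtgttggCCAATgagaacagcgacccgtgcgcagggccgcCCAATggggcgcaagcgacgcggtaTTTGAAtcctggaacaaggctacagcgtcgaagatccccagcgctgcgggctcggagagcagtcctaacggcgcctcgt
HMMR: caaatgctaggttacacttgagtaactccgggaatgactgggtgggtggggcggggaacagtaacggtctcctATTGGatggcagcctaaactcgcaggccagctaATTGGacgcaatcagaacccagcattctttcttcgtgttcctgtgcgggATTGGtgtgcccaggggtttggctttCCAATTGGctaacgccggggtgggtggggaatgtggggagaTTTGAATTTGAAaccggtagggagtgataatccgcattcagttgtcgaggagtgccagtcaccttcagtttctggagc
CKS2: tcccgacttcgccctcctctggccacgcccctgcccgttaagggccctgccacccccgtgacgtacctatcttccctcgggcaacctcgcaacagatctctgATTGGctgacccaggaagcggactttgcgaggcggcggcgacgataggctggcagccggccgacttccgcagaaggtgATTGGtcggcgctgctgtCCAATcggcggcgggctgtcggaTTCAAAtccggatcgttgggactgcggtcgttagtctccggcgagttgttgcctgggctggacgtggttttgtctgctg
CCNB2, which fell, and CKS2, which rose, both carry TTTGAA 29 bases before the start, CKS2 on the opposite strand, and HMMR carries 2 copies in a row at 28 and 22 bases before. CCAAT matches numbered 4 in CCNB2, 5 in HMMR, where 2 on opposite strands overlap, and 3 in CKS2. A match is a run of letters and not a shown binding site.

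DNA replication genes split more than those of mitosis: 33 of 48 fell and 8 rose, with a median of -0.51, against 23.6% and 23.9% of all genes. TYMS, the thymidylate synthase, fell from a mean of 14.10 to 10.72 (-3.38 ± 0.16), and its 3 combination arrays all lay more than 3 units below the lowest pargyline array. GINS3, a subunit of the replicative helicase complex, changed by -2.81 ± 0.15, the repressor E2F8 by -1.86 ± 0.14 and the helicase subunit MCM7 by -1.43 ± 0.12. Another helicase complex subunit, GINS4, rose by 1.28 ± 0.20, the origin recognition subunit ORC4 by 1.00 ± 0.09 and thymidine kinase TK1 by 0.93 ± 0.15. Of 28 genes for ribosome production 18 fell and 1 rose (median -0.41). UBTF, which activates transcription of ribosomal DNA, fell from 7.63, 7.57 and 7.57 to 4.53, 4.93 and 4.71 (-2.87 ± 0.09), and UTP20, a small-subunit processing factor, changed by -1.85 ± 0.18. The member that rose was the transcription factor MYC, by 0.65 ± 0.22, and that call was lost in the fit of the 6 arrays alone and without pargyline replicate 1 or 3 or combination replicate 2 or 3.

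Histone genes mostly rose where they changed. Of 19 measured 9 rose and 3 fell, with a median of 0.17, against 23.9% and 23.6% of all genes. Probe sets of this family can bind transcripts of close relatives. H4C8 went from 5.06, 4.66 and 5.03 to 8.55, 8.50 and 8.36 (3.55 ± 0.16), H2BC5 changed by 3.21 ± 0.18, the linker histones H1-10 and H1-2 by 2.41 ± 0.17 and 2.34 ± 0.22, and H2AC6 by 2.34 ± 0.23. The 3 that fell were variants, MACROH2A1 (-0.58 ± 0.05), H2AX (-0.56 ± 0.20) and H2AZ1 (-0.30 ± 0.10). The falls of H2AX and H2AZ1 were both lost in the fit of the 6 arrays alone and without pargyline replicate 2 or 3 or combination replicate 2 or 3, and each of these 4 omissions left 1 histone gene that fell. That of H2AX was also lost under quantile normalization and without any of 5 other arrays.

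**Figure D2:**
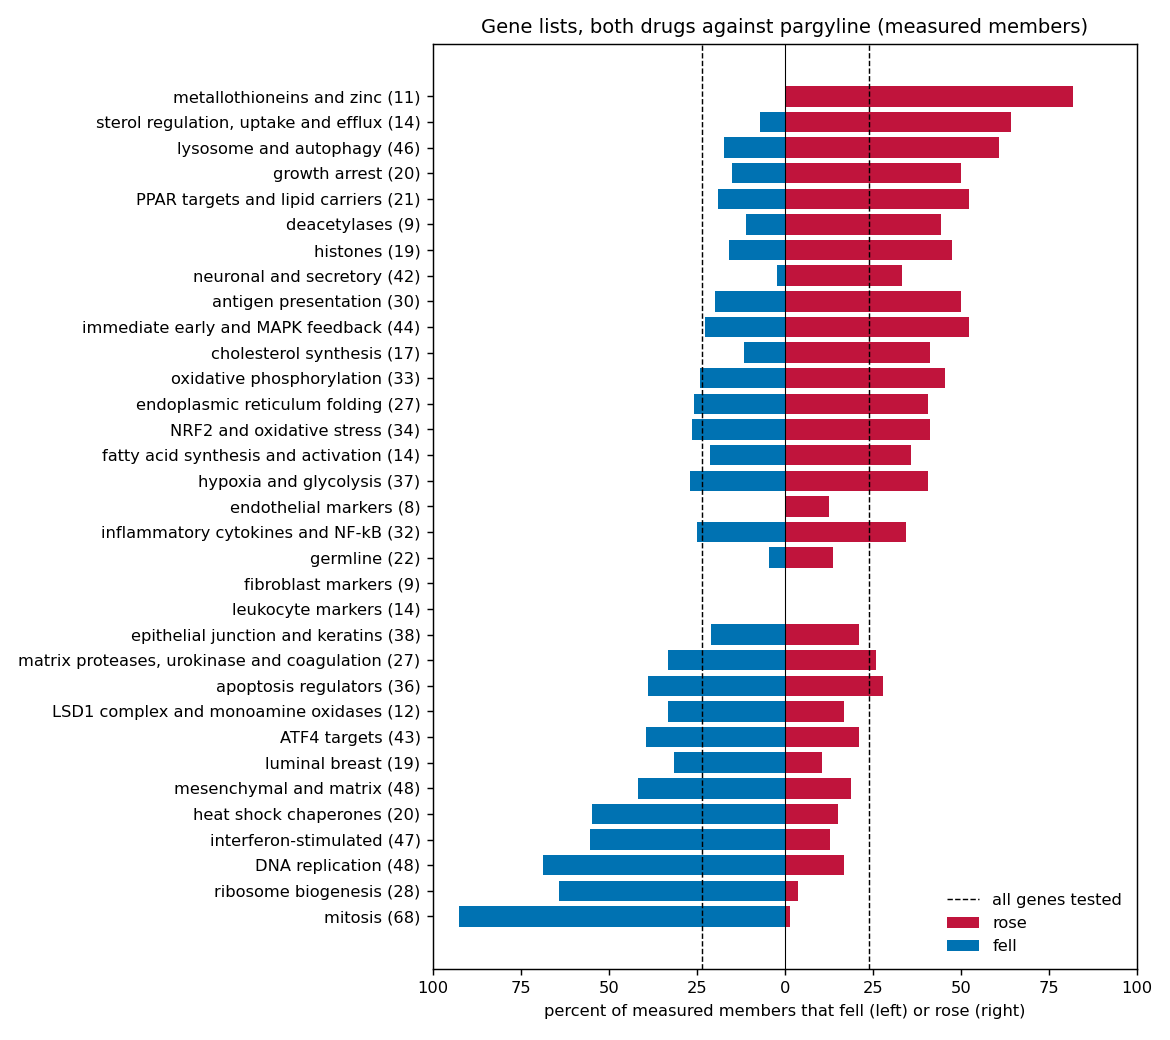
Share of the measured members of each gene list that rose or fell when SAHA was added to pargyline, in percent; bars to the right are members that rose and bars to the left members that fell, and dashed lines mark the shares over all genes, 23.9% and 23.6%. Mitosis has 63 of 68 members among the falls, and metallothioneins have 9 of 11 among the rises.

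Interferon-stimulated genes fell more often than they rose. Of 47 measured 26 fell, 6 rose and 15 did not pass (median -0.46), against falls in 23.6% and rises in 23.9% of all genes. The 3 against 3 arrays of the list mean did not overlap. They stood at 7.12, 7.09 and 7.06 with pargyline and 6.22, 6.31 and 6.37 with the combination. IFIT2, a relative of IFIT3, changed by -5.24 ± 0.28, and GBP1, an interferon-induced GTPase, by -3.19 ± 0.21. DDX60, a helicase that assists RNA sensors, went from 8.01, 8.52 and 8.27 to 3.80, 4.58 and 4.70 (-3.90 ± 0.29). Of those that rose, IFI6, an antiviral membrane protein, went from 6.30, 6.35 and 5.99 to 8.70, 8.76 and 8.80 (2.54 ± 0.12), the ISG15-conjugating enzyme UBE2L6 changed by 1.31 ± 0.08 and the transcription factor IRF1 by 1.31 ± 0.14.

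The core of the interferon-stimulated response element, spelled GAAA, 2 bases of any kind and GAAA again, was searched on both strands of the same promoters, since members of the list moved in both directions. It stood in 25 of the 38 promoters of the list (65.8%) and in 2.97% of all 9563. Of the promoters of members that fell 15 of 22 held it, of those that rose 3 of 5, and of those that did not pass 7 of 11. IFIT3 (chr10:89327747-89328046, plus strand), DDX60 (chr4:168318703-168319002, minus strand) and IFI6 (chr1:27672143-27672442, minus strand) are given, again chosen after their values were seen and with matches in capitals.
IFIT3: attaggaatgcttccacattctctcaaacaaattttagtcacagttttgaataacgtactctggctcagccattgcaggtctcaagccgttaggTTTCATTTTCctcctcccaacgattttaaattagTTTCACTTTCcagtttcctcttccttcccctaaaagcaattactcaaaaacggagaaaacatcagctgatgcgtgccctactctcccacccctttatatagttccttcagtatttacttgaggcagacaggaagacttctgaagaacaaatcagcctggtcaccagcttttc
DDX60: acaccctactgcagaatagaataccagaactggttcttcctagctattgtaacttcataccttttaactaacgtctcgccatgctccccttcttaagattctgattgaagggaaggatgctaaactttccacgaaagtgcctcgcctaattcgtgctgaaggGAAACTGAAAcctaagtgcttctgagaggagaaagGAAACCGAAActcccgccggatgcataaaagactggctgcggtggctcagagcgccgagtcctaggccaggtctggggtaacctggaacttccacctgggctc
IFI6: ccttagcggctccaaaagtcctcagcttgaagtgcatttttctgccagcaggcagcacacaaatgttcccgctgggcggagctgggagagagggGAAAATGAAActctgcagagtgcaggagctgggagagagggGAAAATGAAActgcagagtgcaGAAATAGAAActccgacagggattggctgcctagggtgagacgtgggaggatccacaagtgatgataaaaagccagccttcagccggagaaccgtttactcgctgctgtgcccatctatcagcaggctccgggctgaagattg
IFIT3 and DDX60, which fell, hold 2 matches each, IFIT3 at 156 and 122 bases before the start and DDX60 at 88 and 53. IFI6, which rose, holds 3, at 156, 115 and 93 bases before the start.

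Of 30 genes of antigen presentation 15 rose and 6 fell (median 0.16), and the share that fell was near the 23.6% over all genes (23.9% rose). Besides HLA-DMB, the stress ligand ULBP2, which natural killer cells recognise, rose by 1.47 ± 0.15. The falls included the immunoproteasome subunits PSMB10 (-4.94 ± 0.15) and PSMB8 (-3.66 ± 0.31) and the peptide-trimming protease ERAP1 (-2.13 ± 0.20), for which a further probe set above the median level changed by -0.07. Below that level another ERAP1 probe set changed by -2.41, and dim ones by -0.06 and -0.04. CIITA, the activator of MHC class II genes, had a change of 0.01 ± 0.02 at background; it was named after its value was seen. HLA probe sets can bind transcripts of related genes.

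Of 32 inflammatory and NF-kB genes 11 rose, 8 fell and 13 did not pass (median 0.09), and the share that fell was near the 23.6% over all genes (23.9% rose). CXCL8, the neutrophil chemokine interleukin-8, rose by 3.76 ± 0.31 and the NF-kB subunit NFKB2 by 2.28 ± 0.15, whereas NFKB1, its relative, changed by -3.86 ± 0.36, the cytokine LIF by -4.43 ± 0.62 and CSF1 by -2.46 ± 0.24. Immediate early and MAPK feedback genes rose in 23 of 44 cases and fell in 10 (median 0.44), the falls being near the share over all genes. FOS, a subunit of AP-1, rose from 2.54, 2.63 and 2.74 to 8.44, 8.90 and 8.01 (5.81 ± 0.26). The stress factor ATF3 changed by 3.37 ± 0.20, NR4A2 by 3.35 ± 0.26 and ZFP36, which destabilises messenger RNAs, by 3.18 ± 0.30. FOSL1, another AP-1 subunit, fell (-2.35 ± 0.11), and so did SPRY4, an inhibitor of receptor kinase signalling (-1.68 ± 0.26).

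Genes of sterol handling were among those that pargyline itself had changed, so both effects stand side by side here. The effects share the pargyline arrays. Other lists had moved with pargyline against DMSO as well. Of 68 mitosis genes 34 fell, and rises were seen for 24 of 43 ATF4 targets and 24 of 37 hypoxia and glycolysis genes. Of 17 cholesterol synthesis genes 15 rose with pargyline against DMSO (median 1.32), where 8.48% of all genes rose and 7.45% fell. On adding SAHA 7 rose, 2 fell and 8 did not pass (median 0.38), where 23.9% of all genes rose and 23.6% fell. HMGCS1, the enzyme that makes HMG-CoA, read 10.14, 9.64 and 10.55 with DMSO, 11.84, 12.31 and 12.24 with pargyline and 13.95, 13.97 and 13.01 with the combination, a change of 1.51 ± 0.29 on adding SAHA. IDI1, an isomerase of the isoprenoid branch, rose by 0.91 ± 0.15 and PMVK, the phosphomevalonate kinase, by 0.90 ± 0.13, while ACAT2, the acetoacetyl-CoA thiolase, changed by -1.65 ± 0.09. Without combination replicate 1 or 2 the count of rises was 4, and without any 1 pargyline array or combination replicate 1 or 3 the count of falls was 1.

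Of 14 genes that sense, take up or move sterols 9 rose and 1 fell (median 0.79), against 23.9% and 23.6% of all genes. SREBF1, the precursor of a master regulator of lipid synthesis, rose by 2.23 ± 0.26, INSIG1, which holds that precursor back, by 1.68 ± 0.30, the lysosomal cholesterol exporter NPC1 by 1.69 ± 0.11 and the lysosomal lipase LIPA by 1.29 ± 0.09. NR1H3, the sterol receptor LXR alpha, fell (-1.89 ± 0.22). Fatty acid synthesis and activation genes rose in 5 of 14 cases and fell in 3 (median 0.28), the falls being near the share over all genes. ACSL5, an acyl-CoA synthetase, changed by -4.13 ± 0.15 and the elongase ELOVL6 by -1.41 ± 0.24, while ACSL1 rose by 1.13 ± 0.19. Of 21 PPAR targets and lipid carriers 11 rose and 4 fell (median 0.22), with FABP4, a fatty acid carrier of fat cells, up by 5.07 ± 0.32, the coactivator PPARGC1A by 2.51 ± 0.23, the receptor PPARD by 2.17 ± 0.20, and the receptor PPARG down (-1.13 ± 0.18).

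Among 43 targets of ATF4, the activator of the amino acid response, 17 fell and 9 rose (median -0.08), against 23.6% and 23.9% of all genes. CHAC1, which degrades glutathione, went from 7.36, 7.40 and 6.80 to 10.35, 11.62 and 9.32 (3.24 ± 0.50), with combination replicate 2 highest, and KLHL24 rose by 1.80 ± 0.32. TRIB3, a pseudokinase, changed by -1.82 ± 0.31 and the growth factor VEGFA by -1.67 ± 0.19. Of 27 genes for folding in the endoplasmic reticulum 11 rose and 7 fell (median 0.27), the falls being near the share over all genes. WFS1, a membrane protein of that compartment, rose by 2.19 ± 0.13, and XBP1, a transcription factor of the unfolded protein response, changed by -2.48 ± 0.10. Heat shock chaperones fell in 11 of 20 cases and rose in 3 (median -0.31), and after SERPINH1 the largest change above the median level was that of HSPB1 (-1.91 ± 0.11). DNAJB1, a co-chaperone of HSP70, rose by 1.31 ± 0.28 and HSPB8 by 1.31 ± 0.25.

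Metallothionein and zinc genes rose in 9 of 11 cases with none falling (median 0.47; 23.9% of all genes rose). The zinc sensor MTF1 rose by 1.63 ± 0.09, the zinc exporter SLC30A1 by 1.27 ± 0.06 and MT1F, a metallothionein, by 1.00 ± 0.09. Probe sets of the MT1 genes can bind each other's transcripts. Of 34 NRF2 and oxidative stress genes 14 rose and 9 fell (median 0.10), and the share that fell was near the 23.6% over all genes. HMOX1, the heme oxygenase, had means of 7.76 with DMSO, 10.38 with pargyline and 12.63 with the combination (2.25 ± 0.35 on adding SAHA). KEAP1, which marks NRF2 for degradation, changed by -2.81 ± 0.23.

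Hypoxia and glycolysis genes counted 15 rises and 10 falls of 37 (median 0.11), against 23.9% and 23.6% of all genes. The share of falls in this list and the next was near that over all genes. The same held for the share of rises among the apoptosis regulators below. In the hypoxia list the glucose transporter SLC2A3 was up by 3.37 ± 0.15, the hormone STC1 up by 3.02 ± 0.42 and the kinase PDK1 down (-1.16 ± 0.25). Subunits of oxidative phosphorylation changed by small amounts: 15 of 33 rose, a larger share than over all genes, and 8 fell. Their median was 0.09, and the largest change named was that of NDUFA2 (1.05 ± 0.08). Lysosome and autophagy genes rose in 28 of 46 cases and fell in 8 (median 0.46). LAMP3, a lysosomal membrane protein, rose by 4.59 ± 0.13, the calcium channel MCOLN1 by 2.25 ± 0.17, the sialidase NEU1 by 2.19 ± 0.31 and the autophagosome protein MAP1LC3B by 1.38 ± 0.12. The sulfatase SGSH fell (-1.21 ± 0.18). Among 36 apoptosis regulators 14 fell and 10 rose (median -0.02): CASP4, an inflammatory caspase, changed by -4.06 ± 0.28, the BH3-only protein BID by -3.21 ± 0.21 and the caspase-8 inhibitor CFLAR by -2.61 ± 0.14, while CASP9 rose by 1.35 ± 0.15 and the death receptor TNFRSF10B by 1.02 ± 0.05.

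Of 42 neuronal and secretory genes 14 rose, 1 fell and 27 did not pass (median 0.02; 23.9% of all genes rose), and 17 of the 42 were above the median level with pargyline or the combination. After ABAT, HPCAL4 and SCG2 the largest rises were SYT11, a synaptotagmin (5.35 ± 0.13), MAP2 (5.23 ± 0.16) and MAP1A (4.41 ± 0.18), both proteins of neuronal microtubules. STX1A, a syntaxin of the synapse, fell (-1.65 ± 0.27). REST, the repressor of neuronal genes, had a change of -0.23 ± 0.20 that did not pass and was named after its value was seen. Of 22 germline genes 3 rose, a smaller share than over all genes, and 1 fell (median -0.0021). Of the 22, however, 17 had a pargyline mean below 3, near background, and 3 were above the median level with pargyline or the combination. TEX14, a protein of germ cell bridges, went from 2.20, 2.23 and 2.14 to 8.91, 8.96 and 8.57 (6.62 ± 0.21). The melanoma antigen MAGEB2 rose by 4.23 ± 0.22, and MAGEC1 changed by -1.21 ± 0.12. Leaving out pargyline replicate 3 gave 3 falls among the neuronal genes and 2 among the germline genes.

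Of 38 epithelial junction and keratin genes 8 rose, 8 fell and 22 did not pass (median -9e-04), in both directions a smaller share than the 23.9% and 23.6% over all genes. Of the 38, however, 17 had a pargyline mean below 3, near background, where a fall can hardly be seen. Above the median level with pargyline or the combination were 15. CD24, a surface protein, rose by 2.18 ± 0.08, the junction protein JUP by 1.70 ± 0.29 and KRT19 by 1.67 ± 0.14, while PKP3, a plakophilin of desmosomes, changed by -4.91 ± 0.19 and KRT7 by -2.47 ± 0.22. CDH1, the epithelial cadherin, stayed at background at 2.05. Of 48 mesenchymal and matrix genes 20 fell and 9 rose (median -0.14): the laminin chain LAMB1 changed by -5.26 ± 0.18, FBN1 by -1.63 ± 0.34 and CD44 by -1.60 ± 0.14, and the collagen-modifying enzyme PLOD2 rose by 1.02 ± 0.20. Of 27 matrix protease, urokinase and coagulation genes 9 fell and 7 rose (median 0.0071), the rises being near the share over all genes. With PLAU fell its receptor PLAUR (-3.08 ± 0.21) and TFPI, an inhibitor of the tissue factor pathway, (-4.79 ± 0.26), and TIMP2, an inhibitor of metalloproteinases, rose by 1.84 ± 0.22. The luminal breast genes had 6 falls and 2 rises of 19 (median -0.08). GATA3, a luminal transcription factor, fell from 9.32, 9.56 and 9.38 to 5.41, 5.35 and 6.49 (-3.67 ± 0.26), ERBB2 from 8.31, 7.96 and 8.35 to 5.02, 4.90 and 5.26 (-3.14 ± 0.16), and its partner ERBB3 rose by 4.28 ± 0.12.

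**Figure D3:**
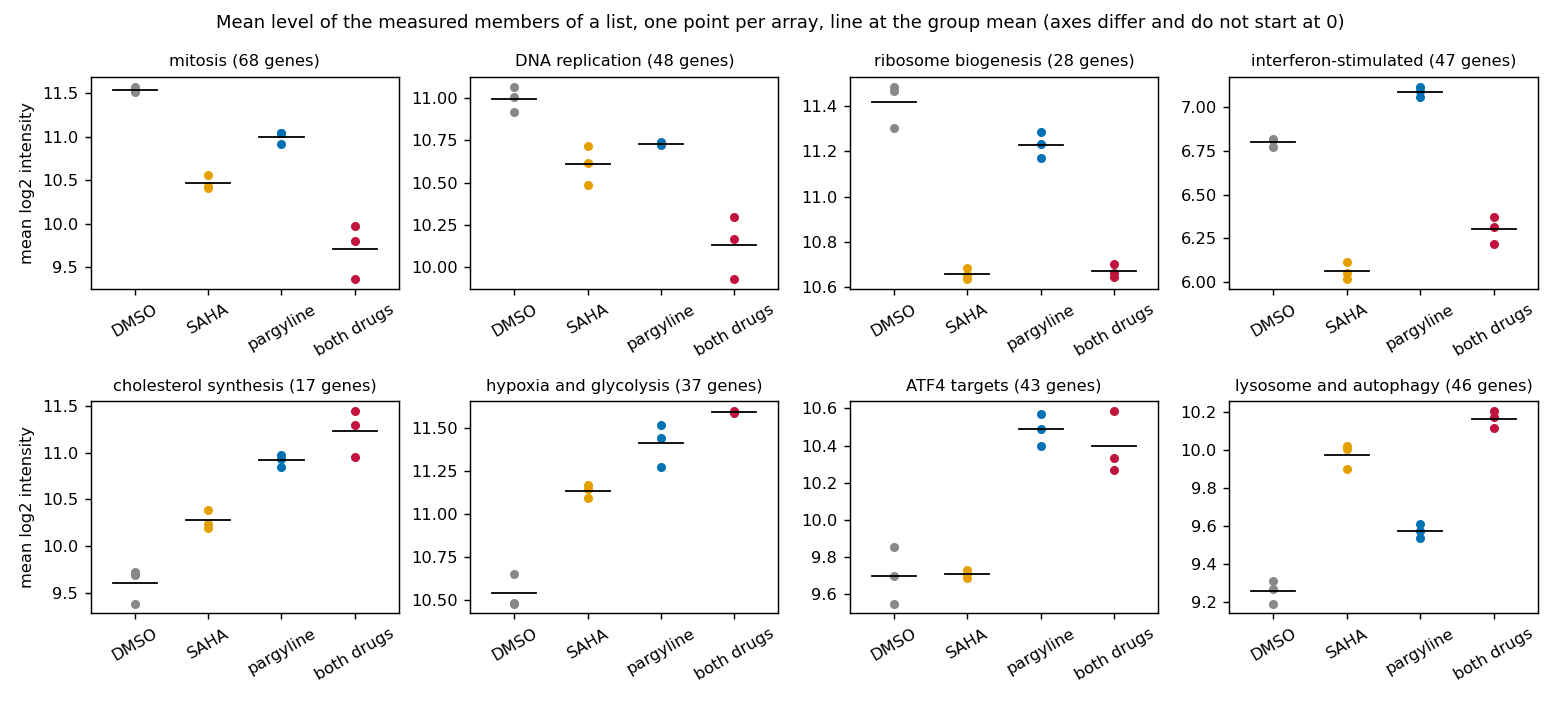
Mean log2 value of gene lists on each of the 12 arrays, by treatment; points are single arrays, short lines are group means, and the combination is marked as both drugs. For mitosis the 3 combination arrays lie between 9.37 and 9.98, below the 3 pargyline arrays at 10.92 to 11.04, and for interferon-stimulated genes between 6.22 and 6.37 against 7.06 to 7.12.

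The effect of SAHA on pargyline-treated cells was then set beside its effect on vehicle-treated cells. These comparisons share no array. With DMSO as the base 2754 genes rose (23.0%) and 2768 fell (23.1%), and 2346 genes rose in both comparisons, which is 82.1% of the rises on adding SAHA to pargyline and 85.2% of those with SAHA alone. In the same way 2357 fell in both, 83.4% and 85.2% of the falls. Across the 11963 genes the effects correlated with a Pearson r of 0.934 and a Spearman rho of 0.856, given as a description, since genes are not independent and all 12 arrays come from 1 line and 1 platform. Interquartile ranges of the effects were 0.46 with pargyline and 0.45 without. STAT4 had a change of 5.67 ± 0.07 with pargyline and 5.66 ± 0.07 without, and the 95% confidence interval of the difference ran from -0.21 to 0.23.

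**Figure D4:**
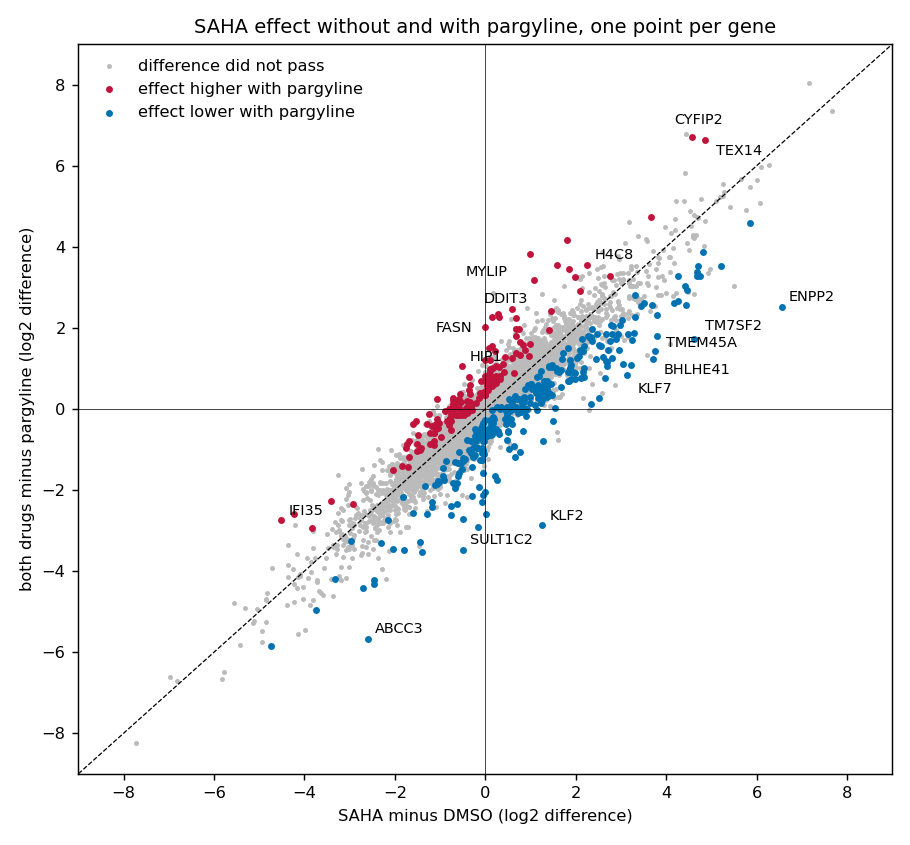
Log2 effect of SAHA without pargyline (horizontal axis) and with it (vertical axis) for the 11963 genes tested, 3 against 3 arrays for each effect; the line marks equal effects and coloured points are genes whose difference passed. Points follow the line (Pearson r 0.934), with KLF2 and ENPP2 far below it and CYFIP2 and MYLIP above it.

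The difference between the effects was tested gene by gene, and 445 genes passed (3.72%), 153 with a higher effect in the presence of pargyline (1.28%) and 292 with a lower one (2.44%). The higher ones were thus 34.4% of those called. With each array centred on its median, which moved the median difference from -0.0038 to 0.073, the counts were 220 and 215, or 50.6% higher. With array weights they were 446 and 633. Counts also moved with single arrays: without DMSO replicate 1 or 2 they were 87 and 164, and 78 and 167, without SAHA replicate 1 or 2 118 and 193, and 90 and 171. Without pargyline replicate 3 they were 99 and 198, without combination replicate 1 or 2 116 and 192, and 86 and 160, and without combination replicate 3 236 and 420.

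Of the 4703 genes called in the same direction in both comparisons 256 passed this test, with the smaller effect in the presence of pargyline for 160 and the larger for 96. Of the 956 genes called only on adding SAHA to pargyline 89 passed, and of the 796 called only with SAHA alone 79 did. A call on one side only therefore does not show that the effects differed. Of the 24 genes with the largest changes the difference passed for 4, CYFIP2, TEX14, IL27RA and ABCC3. CYFIP2, a component of the actin-regulating WAVE complex, read 5.06, 5.35 and 5.38 with DMSO, 9.85, 9.89 and 9.78 with SAHA, 3.00, 3.08 and 4.20 with pargyline and 10.14, 10.17 and 10.11 with the combination. It thus reached like values with SAHA in either setting and started lower with pargyline, and the difference of 2.14 ± 0.38 passed (adjusted p = 0.018; 0.85 on a second probe set). TEX14 reached 7.21, 7.56 and 6.56 with SAHA and 8.91, 8.96 and 8.57 with the combination from background in both settings, a difference of 1.77 ± 0.30. For IL27RA the difference was -1.12 ± 0.09, but 0.35 on its second probe set. ABCC3 read 2.34, 1.99 and 2.36 with SAHA alone and 1.93, 2.36 and 2.92 with the combination, at background in both settings. Pargyline had raised its start, by 3.25 ± 0.36, so its difference of -3.07 ± 0.50 has no exact size.

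KLF2, a transcription factor of the Krueppel-like family, responded in opposite directions. Its values were 9.28, 9.26 and 9.32 with DMSO and 9.86, 10.93 and 10.86 with SAHA, a rise of 1.26 ± 0.30, but 8.77, 8.59 and 9.13 with pargyline and 5.64, 5.76 and 6.48 with the combination, a change of -2.87 ± 0.30. The difference of -4.13 ± 0.43 (adjusted p = 0.00206) was the largest of those named, and every combination array lay below every other array. KLF7, of the same family, rose by 3.13 ± 0.30 with SAHA alone and by 0.84 ± 0.30 on adding it to pargyline, a difference of -2.29 ± 0.43 that no longer passed without DMSO replicate 1 or 2 or SAHA replicate 2; its rise with pargyline was lost in the fit of the 6 arrays and without 6 of the arrays, each in turn.

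For 4 of the genes with a smaller rise the combination ended near the level that SAHA alone reached, and pargyline had raised the start. ENPP2, the autotaxin enzyme that makes lysophosphatidic acid, read 4.41, 3.93 and 3.10 with DMSO, 8.29, 8.24 and 8.63 with pargyline, 10.28, 10.41 and 10.41 with SAHA and 10.77, 10.98 and 10.96 with both. Its rise was 6.55 ± 0.27 without pargyline and 2.52 ± 0.27 with it (difference -4.03 ± 0.38, and -2.34 on a second probe set). TM7SF2, a sterol reductase, went from 7.16, 7.05 and 7.47 with pargyline to 8.76, 9.18 and 8.94, and from 4.53, 3.39 and 3.76 with DMSO to 8.56, 8.55 and 8.40, a difference of -2.88 ± 0.35. TMEM45A, a membrane protein, had a difference of -2.31 ± 0.25, and BHLHE41, a repressor of the circadian clock, of -2.49 ± 0.48. The call for BHLHE41 was lost without DMSO replicate 1, SAHA replicate 2, pargyline replicate 3 or combination replicate 1 or 2, and that of its rise of 1.22 ± 0.34 without pargyline replicate 1.

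FASN, the fatty acid synthase, and DDIT3, the stress factor CHOP, passed on adding SAHA to pargyline and did not with SAHA alone. FASN read 10.71, 10.52 and 11.16 with DMSO, 10.87, 10.27 and 11.20 with SAHA, 10.93, 10.36 and 11.26 with pargyline and 12.95, 13.24 and 12.43 with the combination, so the combination arrays stood above the other 9. DDIT3 read 8.48, 8.39 and 7.78, 8.42, 8.55 and 8.49, 8.53, 8.50 and 8.16 and 10.74, 11.49 and 9.99 in the same order, with the highest value in combination replicate 2. Their differences of 2.04 ± 0.45 and 2.07 ± 0.46 had adjusted p of 0.0405 and 0.0426. The first was lost under quantile normalization and without 9 of the 12 arrays, taken 1 at a time, and the second without 10 of the 12, with adjusted p up to 0.0952 and 0.106. A dim second FASN probe set changed by 0.14.

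HIP1, an endocytic adaptor, fell by 0.51 ± 0.16 with SAHA alone and rose by 1.06 ± 0.16 with pargyline present, a difference of 1.56 ± 0.23. H4C8 had a difference of 1.30 ± 0.22, and reached 6.84, 7.25 and 6.90 with SAHA against 8.55, 8.50 and 8.36 with the combination. IFI35, an interferon-induced protein, fell in both settings but less in the presence of pargyline, with changes of -4.52 ± 0.14 and -2.75 ± 0.14 and a difference of 1.77 ± 0.20. Opposite calls in both comparisons were held by 23 genes, and the difference passed for 21 of these, of which 13 rose with SAHA alone and fell when it joined pargyline and 8 did the reverse. After KLF2 the largest of the 13 was CSGALNACT1, an enzyme of chondroitin sulfate synthesis (1.28 ± 0.25 alone, -0.80 ± 0.25 added), followed by the aldo-keto reductase AKR1C2 (0.77 ± 0.20 and -1.07 ± 0.20), whose probe set can bind related transcripts. After HIP1 the largest of the 8 was CCNL1, a cyclin that takes part in splicing (-0.37 ± 0.10 and 0.79 ± 0.10). These 3 were named after their values were seen.

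**Figure D5:**
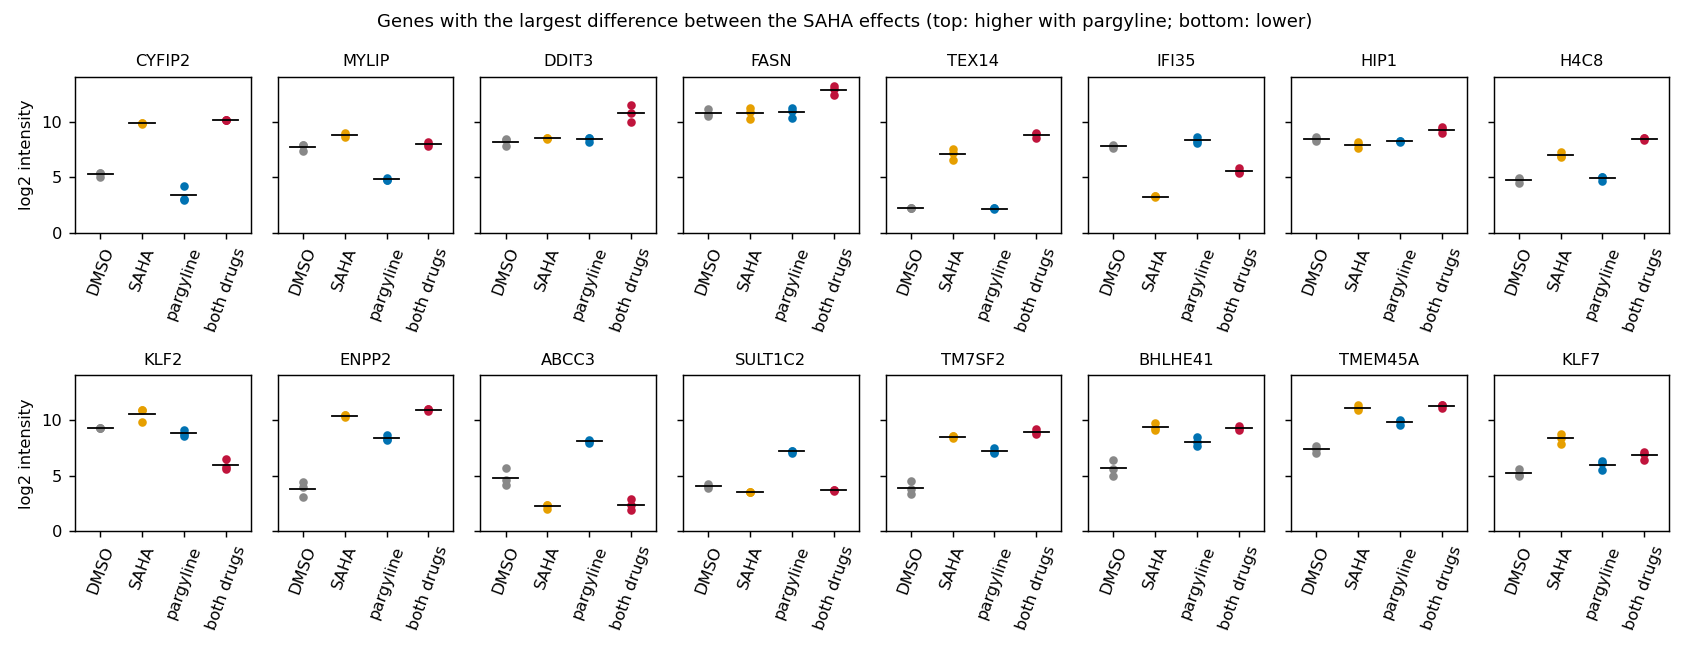
Log2 value on each of the 12 arrays of the 16 genes with the largest passing differences between the effects of SAHA with and without pargyline, 8 each way; points are single arrays in the order DMSO, SAHA, pargyline and combination (both drugs), with lines at group means. KLF2 has its 3 combination arrays at 5.64 to 6.48, below all other arrays, and ENPP2 with pargyline alone starts at 8.24 to 8.63 against 3.10 to 4.41 with DMSO.

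Some genes that pargyline moved were moved the other way when SAHA was added. The changes are given side by side and share the pargyline arrays. S100P, a calcium-binding protein, read 6.21, 7.35 and 5.96 with DMSO, 11.80, 10.91 and 11.40 with pargyline and 8.22, 9.83 and 9.75 with the combination, so that it fell by 2.11 ± 0.47 on adding SAHA and stayed above the DMSO arrays. SULT1C2, a sulfotransferase, read 3.92, 4.03 and 4.21, 7.24, 7.05 and 7.23 and 3.75, 3.62 and 3.73 in the same order, and ended slightly below DMSO. Its probe set read 3.57, 3.56 and 3.56 with SAHA alone, and the difference between the effects was -2.98 ± 0.11 (-4.45 on a second probe set).

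ABCC3 rose by 3.25 ± 0.36 with pargyline, from 4.19, 5.67 and 4.62 to 7.94, 8.07 and 8.21, and ended at 1.93, 2.36 and 2.92 with the combination, at background. Its second probe set changed by -2.38 on adding SAHA. CSF1, the macrophage colony-stimulating factor, changed by 1.75 ± 0.24 with pargyline and -2.46 ± 0.24 on adding SAHA, the receptor GPRC5C by 1.73 ± 0.28 and -2.09 ± 0.28, and the calcium channel subunit ORAI3 by 1.67 ± 0.26 and -2.72 ± 0.26.

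In the reverse direction, MYLIP, the ubiquitin ligase that degrades the LDL receptor, fell from 7.88, 7.40 and 7.90 with DMSO to 4.78, 4.73 and 4.90 with pargyline and rose to 8.01, 7.78 and 8.18 with the combination, against 8.99, 8.63 and 8.80 with SAHA alone. Its change of 3.19 ± 0.15 on adding SAHA exceeded the 1.08 ± 0.15 without pargyline by 2.11 ± 0.22 (adjusted p = 0.00201). TXNIP, the inhibitor of thioredoxin, changed by -1.74 ± 0.19 with pargyline and then by 3.38 ± 0.19 on adding SAHA, and the effect of SAHA alone was 3.35 ± 0.19. The interval of that difference ran from -0.57 to 0.62, and further TXNIP probe sets changed by 3.82 and 3.67. SREBF1 changed by -1.25 ± 0.26 and 2.23 ± 0.26, KHK, the fructokinase, by -1.19 ± 0.31 and 3.27 ± 0.31, and STOML1, a stomatin-like protein, by -1.18 ± 0.11 and 2.36 ± 0.11. For TXNIP and SREBF1 the combination arrays lay below those of SAHA alone, 10.89, 10.47 and 10.10 against 13.01, 12.60 and 12.40 for SREBF1.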

How the data were processed

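Human Affymetrix expression arrays, 12 in all and 3 per treatment, had been hybridised with RNA of MDA-MB-231 cells, and the comparison of the combination with pargyline alone used 6 of them. The authors deposited log2 intensities made with RMA, per the submitters' processing notes; its version, and whether the 12 arrays were normalized together, are not given in the sources used here. Of 22277 probe sets 62 were controls, 19064 were listed for 1 gene, 1043 for several and 2108 for none. Each of the 11963 genes was tested by the single-gene probe set with the highest mean over the 12 arrays, and 4310 genes had further ones. Symbols were updated by gene identifier for 11954 genes.

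A mean per group was fitted to the values as deposited on all 12 arrays (8 residual degrees of freedom) with lmFit and eBayes of limma 3.58.1 in R 4.3.3, two-sided, and p-values were adjusted over all genes. The difference of SAHA effects is the combination minus pargyline, less SAHA minus DMSO. The number of arrays limits the precision. The model was tested on simulated data.

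Genes named are the 12 largest rises and falls, the 8 largest differences and the 6 largest reversals of a pargyline change each way, up to 6 members of each of 33 gene lists (1026 genes, 909 measured) and up to 3 of a list's minority direction, plus the drugs' targets and cell markers. Except for the targets and markers, a gene had to have at least 1 group mean above 7.06, the median level: of pargyline or the combination, for reversals also of DMSO, and for differences of any group. A gene could thus be named through 1 high group. The comparison, lists and rules were chosen with earlier results of these data known, so the lists are descriptions and no independent evidence. Alternatives were quantile normalization, array centring, filters on dim genes, the mean of a gene's probe sets, a fit of the 6 arrays alone, limma's array weights, its trended and robust prior, the replicate number as a blocking term, stricter thresholds and leaving out each array. The labels do not say what equally numbered replicates share.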

Additional observations from a re-analysis of the deposited data

Results flagged for a closer look

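The effect of SAHA differed between pargyline-treated and vehicle-treated cells, by limma's test of the difference, for 153 genes with a higher effect and 292 with a lower effect in the presence of pargyline. With each array centred on its median these counts were 220 and 215. Among the named genes with a higher effect the differences were 2.14 for CYFIP2, 2.11 for MYLIP, 2.07 for DDIT3, 2.04 for FASN, 1.77 for TEX14, 1.77 for IFI35, 1.56 for HIP1 and 1.30 for H4C8. The CYFIP2 difference was 0.85 on a second probe set. The calls for DDIT3 and FASN were lost without most of the arrays, left out in turn. Those with a lower effect were -4.13 for KLF2, -4.03 for ENPP2, -3.07 for ABCC3, -2.98 for SULT1C2, -2.88 for TM7SF2, -2.49 for BHLHE41, -2.31 for TMEM45A and -2.29 for KLF7. ABCC3 stood at background with SAHA in both settings, so its difference has no exact size.

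Probe sets that the array annotation lists for several genes or for none entered no comparison above. In the same model, adjusted over each kind apart, 184 of the 1043 probe sets with several genes were higher and 213 lower with the combination than with pargyline. Of the 2108 with no listed gene 225 were higher and 188 lower.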

How the results depend on the processing

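Counts for SAHA added to pargyline stayed within 1.5 times the 2856 rises and 2826 falls under every alternative except the demand for a 2-fold change, which left 1071 and 1098; leaving out each array in turn gave 2645 to 2856 rises and 2608 to 2833 falls. Counts of the difference between SAHA effects, 153 higher and 292 lower, moved more: to 446 and 633 with array weights, 28 and 64 at an adjusted p under 0.01, and 33 and 110 at a 2-fold difference, and to between 78 and 236 higher and 160 and 420 lower when each array was left out; the cause was not tested. With the replicate number as a block they were 275 and 395. Arrays with the same number correlated in their deviations from the group means with r between 0.0807 and 0.5345 over 18 pairs, not above 0.1 in all, so the number was not treated as a pairing, although each of the 12 arrays correlated best with those of its own number. Of 239 named genes 218 kept their call and direction under all alternatives run. Markers near no change turned sign: ESR1 to 0.0071 on the mean of its probe sets, and with array weights ESR1 to 0.039, VIM to -0.0018 and PGR to 0.000427. With single arrays left out, EGFR ranged from -0.27 to 0.11, HDAC1 from -0.000817 to 0.072, VIM from -0.00705 to 0.0804 and ESR1 from -0.098 to 0.011. Without presence calls, signal near the background of 2.23 limits how far changes of dim genes can be sized.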
